A study of Homo sapiens with 17 samples.

Results

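SREBF1 and INSIG1, 2 regulators of the sterol pathway, were followed across the 17 arrays of the study, as 2 of the 17687 genes measured. They were taken by gene symbol, and each was read by 1 probe set (SREBF1 by TC1700009949.hg.1, INSIG1 by TC0700009807.hg.1). The pair was chosen by its log2 differences between treated and solvent arrays, so the values below describe them and no p-value is given for either gene. Cells were left for 24 h after seeding and treated for 48 h. Maraviroc is an approved HIV drug, and DZH_2 is a code name for a compound not described further here. MDA-MB-231, a triple-negative breast cancer line of mesenchymal character, gave 2 arrays each for Maraviroc IC20, Maraviroc IC50, their solvent ethanol, DZH_2 IC20, DZH_2 IC50 and their solvent DMSO, and 1 array of untreated cells. A second set of 4 arrays, titled MCF10 after a non-tumorigenic mammary line, held DZH_2 at IC20 and at IC50, their solvent DMSO, and untreated cells, with 1 array for each. IC20 and IC50 are concentrations that inhibit by 20% and 50%, and the sources used here do not state the amounts behind them. Values are deposited log2 signals, in which a difference of 1 is a 2-fold difference, and signals of different genes are not comparable in level.

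SREBF1 encodes SREBP-1, a transcription factor made as a precursor in the membrane of the endoplasmic reticulum. When membrane sterols are low, the escort protein SCAP carries SREBP precursors to the Golgi, where proteases release the part that enters the nucleus. INSIG1 encodes a membrane protein that holds SCAP in the endoplasmic reticulum when sterols are plentiful, and it is itself transcribed under SREBP. SREBP-1 is best known for genes of fatty acid synthesis and its relative SREBP-2, the product of SREBF2, for genes of cholesterol synthesis and uptake. Transcription of SREBF1 is also driven by the liver X receptors (LXR), which respond to oxidised sterols.

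The 2 MDA-MB-231 arrays of Maraviroc IC50 stood apart from the other 11. Their replicate SD over genes was 0.546, against 0.277 to 0.366 in the other 5 groups, and their interquartile ranges of 4.07 and 4.05 lay below the 4.21 to 4.65 of the others. The cell line field of the 4 MCF10-titled arrays names MDA-MB-231, so the titles were followed and marker genes were examined. Of 8 basal epithelial markers measured, 4 lay above the negative control probe sets (over their 75th percentile, 6.10) in the MCF10-titled arrays and 2 in MDA-MB-231, with summed log2 signals of 56.6 to 66.8 against 37.9 to 46.3. In the MCF10-titled controls KRT5, TRIM29, ITGB4 and S100A2 averaged 9.29, 8.46, 15.29 and 14.85, against 4.53, 3.98, 10.46 and 6.56 in the MDA-MB-231 controls, whereas KRT14, CDH1, EPCAM and CLDN1 were near the negative controls in the MCF10-titled arrays. Of 8 mesenchymal markers, 7 lay above the controls in the MCF10-titled arrays and all 8 in MDA-MB-231, with sums of 84.6 to 92.2 against 82.8 to 109.8. Of 7 fibroblast markers measured, 6 lay above the controls in the MCF10-titled arrays (LUM was near them) and 2 in MDA-MB-231, with sums of 58.3 to 65.0 against 39.7 to 42.9. Of 4 leukocyte markers, 4 lay above them in the MCF10-titled arrays and 2 in MDA-MB-231, with sums of 30.1 to 36.8 against 32.3 to 35.0. The 2 sets of arrays therefore differed. Of the markers, 4 basal ones were higher in the MCF10-titled arrays and the general epithelial genes CDH1 and EPCAM were near the negative controls. The fibroblast genes DCN, FBLN1 and MMP2 averaged 10.45, 13.65 and 13.79 in the MCF10-titled controls. In the MDA-MB-231 controls they averaged 5.58, 4.99 and 4.71, whereas COL1A2 was level (8.49 and 8.48). The markers thus did not settle the line, and the part of cell identity in the values of SREBF1 and INSIG1 was not tested.

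The start regions of SREBF1, INSIG1 and SREBF2 are shown because signals of these 3 genes differed between treated and solvent arrays. Each sequence is the RefSeq window of 300 bases (250 before and 50 after the start) on GRCh38.p14, written 5′ to 3′ on the gene's own strand. The windows are chr17:17836937-17837236 (minus strand) for SREBF1, chr7:155297628-155297927 (plus strand) for INSIG1 and chr22:41832855-41833154 (plus strand) for SREBF2. Capitals mark matches, on either strand, to a sterol response element (TCACNCCAC), an E-box (CACGTG), the box bound by NF-Y (CCAAT) and the GC box bound by Sp1 (GGGCGG).
SREBF1: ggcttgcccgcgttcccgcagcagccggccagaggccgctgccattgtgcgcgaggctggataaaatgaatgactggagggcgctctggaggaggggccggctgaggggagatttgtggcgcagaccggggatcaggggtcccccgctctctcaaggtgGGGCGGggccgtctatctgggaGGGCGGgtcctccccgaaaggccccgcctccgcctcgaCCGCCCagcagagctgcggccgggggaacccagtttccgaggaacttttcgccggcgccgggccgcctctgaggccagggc
INSIG1: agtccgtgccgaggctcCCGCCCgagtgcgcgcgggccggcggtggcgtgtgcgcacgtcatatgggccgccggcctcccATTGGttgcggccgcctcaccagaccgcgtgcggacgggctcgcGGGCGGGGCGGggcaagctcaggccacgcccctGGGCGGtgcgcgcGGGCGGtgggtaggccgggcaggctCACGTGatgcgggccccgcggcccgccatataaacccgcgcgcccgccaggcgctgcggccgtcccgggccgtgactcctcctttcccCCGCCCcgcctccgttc
SREBF2: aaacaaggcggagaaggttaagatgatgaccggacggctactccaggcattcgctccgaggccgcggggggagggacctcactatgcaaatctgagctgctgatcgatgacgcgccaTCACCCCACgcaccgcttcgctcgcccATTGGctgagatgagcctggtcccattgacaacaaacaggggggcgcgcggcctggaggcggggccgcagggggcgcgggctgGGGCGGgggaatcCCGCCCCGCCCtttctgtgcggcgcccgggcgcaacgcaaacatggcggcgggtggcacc
The INSIG1 window held 1 E-box at bases 196 to 201, 1 CCAAT box and 6 GC boxes, of which 1 pair overlapped by 1 base. The SREBF2 window held 1 sterol response element at bases 118 to 126, 1 CCAAT box and 3 GC boxes, of which the last 2 overlapped by 1 base. The SREBF1 window held 3 GC boxes and none of the other 3 motifs. Only 1 window was taken for each gene, and any other start of these genes was not examined. Of all 35116 RefSeq windows of this length, 1.13% held the sterol response element, 7.26% the E-box, 34.6% the CCAAT box and 45.0% the GC box. These matches describe letters in a window and say nothing of binding, and a missing match says only that the letters are not there.

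Both SREBF genes also hold a microRNA of the miR-33 family, known for targeting cholesterol exporters. RefSeq places hsa-miR-33b-5p within SREBF1 and hsa-miR-33a-5p within SREBF2. Their mature sequences are shown because they carry the same seed, bases 2 to 8, in capitals.
hsa-miR-33b-5p: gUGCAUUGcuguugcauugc
hsa-miR-33a-5p: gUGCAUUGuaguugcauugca
The levels of these microRNAs were not analysed here.

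Across the 13 MDA-MB-231 arrays, SREBF1 was high and INSIG1 low in control cells, and the opposite held in cells given DZH_2 or Maraviroc IC50. SREBF1 lay between 12.87 and 14.62 (median 13.6) on the 8 treated arrays and between 14.59 and 15.06 (median 14.93) on the 5 arrays of DMSO, ethanol and untreated cells. INSIG1 lay between 10.90 and 13.46 (median 12.3) on the treated arrays and between 8.70 and 10.38 (median 9.00) on the control arrays. Thus 7 of 8 treated arrays were below all controls for SREBF1, the exception being Maraviroc IC20 replicate 1, and 8 of 8 were above all controls for INSIG1. The arrays measure bulk cultures, in which fewer cells with a transcript and less transcript per cell cannot be told apart.

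**Figure D1:**
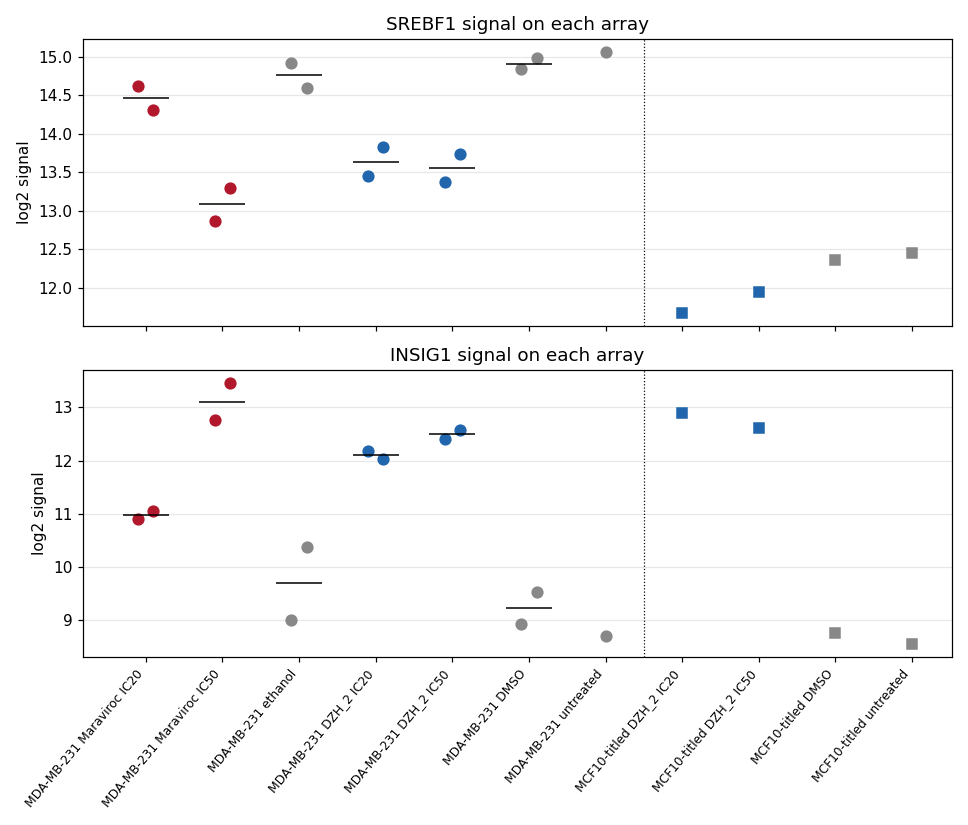
Log2 signal (y axis) of SREBF1 (upper panel) and INSIG1 (lower panel) on each of the 17 arrays (x axis, by group). Points are arrays, red for Maraviroc, blue for DZH_2 and grey for controls, bars are means of 2 arrays, and the dotted line divides MDA-MB-231 (left) from the MCF10-titled arrays (right). All 8 treated MDA-MB-231 arrays lie above the 5 controls for INSIG1, and 7 of 8 lie below them for SREBF1.

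The groups could be ordered by level, with steps read against a replicate SD pooled over the 6 replicated MDA-MB-231 groups of 0.24 for SREBF1 and 0.48 for INSIG1. The untreated and MCF10-titled groups have 1 array each and no spread of their own. For both genes a step above 1 replicate SD is a description of size and not a test. For SREBF1 the order from high to low was MDA-MB-231 untreated (15.06), DMSO (14.91 ± 0.10), ethanol (14.76 ± 0.24), Maraviroc IC20 (14.46 ± 0.21), DZH_2 IC20 (13.64 ± 0.27), DZH_2 IC50 (13.56 ± 0.26) and Maraviroc IC50 (13.08 ± 0.30; SD, n = 2). The MCF10-titled arrays followed with untreated cells (12.45), DMSO (12.36), DZH_2 IC50 (11.95) and DZH_2 IC20 (11.68). Arrays of neighbours overlapped for DMSO and ethanol, for ethanol and Maraviroc IC20, and for the DZH_2 doses. The widest step, 3.48 replicate SDs, separated Maraviroc IC20 from DZH_2 IC20, and the next, 2.67, separated Maraviroc IC50 from untreated MCF10-titled cells. The steps from DZH_2 IC50 to Maraviroc IC50 (2.00), between the MCF10-titled DMSO and DZH_2 IC50 arrays (1.73), between ethanol and Maraviroc IC20 (1.23) and between the MCF10-titled DZH_2 arrays (1.15) also exceeded 1 replicate SD, and the others did not.

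For INSIG1 the highest group was Maraviroc IC50 (13.11 ± 0.50; SD, n = 2), followed by the MCF10-titled DZH_2 IC20 (12.90) and IC50 (12.61) arrays. Next came MDA-MB-231 DZH_2 IC50 (12.49 ± 0.12), DZH_2 IC20 (12.10 ± 0.12), Maraviroc IC20 (10.98 ± 0.10), ethanol (9.69 ± 0.97) and DMSO (9.22 ± 0.42; SD, n = 2). The MCF10-titled DMSO (8.76), MDA-MB-231 untreated (8.70) and MCF10-titled untreated (8.56) arrays were lowest. Only the steps below DZH_2 IC20 (2.33 replicate SDs) and below Maraviroc IC20 (2.66) exceeded 1 replicate SD; the other 8 neighbouring steps, between 0.12 and 0.96, did not.

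Over the 13 MDA-MB-231 arrays the 2 genes ran in opposite directions (Pearson r = -0.940, a description over arrays that share their groups and platform). Among the 10679 other genes above the negative controls, INSIG1 ranked 21 from the lowest in its correlation with SREBF1. Because the pair was chosen by its differences on these same arrays, this r and rank carry that choice and test nothing. The untreated MCF10-titled and DMSO arrays lay off this line, with SREBF1 at 12.45 and 12.36 and INSIG1 at 8.56 and 8.76, both low.

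**Figure D2:**
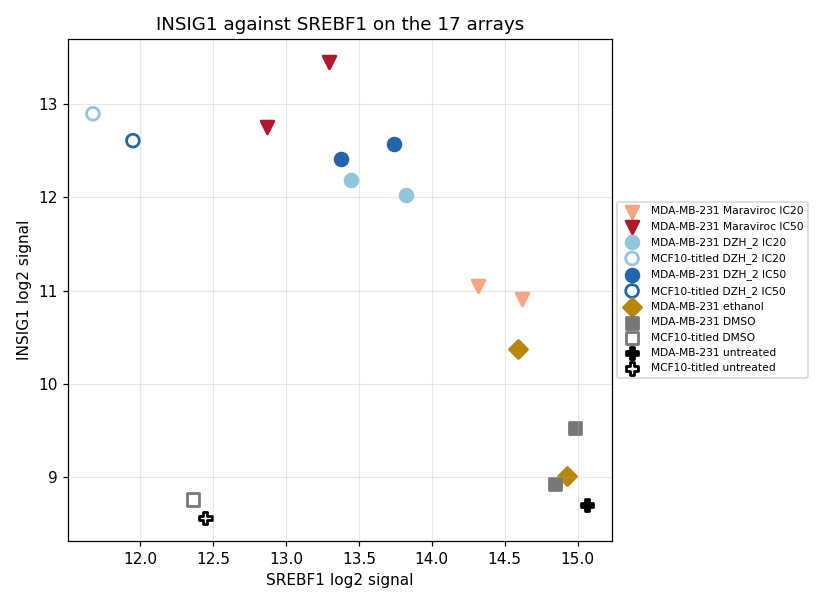
INSIG1 log2 signal (y axis) against SREBF1 log2 signal (x axis), 1 point per array, with shape and colour for group and open symbols for MCF10-titled arrays. In MDA-MB-231 the points run from high SREBF1 with low INSIG1 (controls) to lower SREBF1 with high INSIG1 (DZH_2 and Maraviroc IC50), and the MCF10-titled controls are low for both.

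Maraviroc at IC20 was set against ethanol to show the response at the lower dose. SREBF1 read 14.62 and 14.31 with Maraviroc IC20, against 14.93 and 14.59 with ethanol. These arrays overlapped, and the difference was -0.29 ± 0.28 (limma estimate and SE, n = 2 each). Here and below, a gene's SE is pooled over the 6 replicated groups and does not show the spread of single groups. The INSIG1 SD was 0.97 with ethanol and 0.10 with Maraviroc IC20. INSIG1 read 10.90 and 11.05 with Maraviroc IC20, against 9.00 and 10.38 with ethanol, so the groups did not overlap. Here and below, the share of all genes whose groups did not overlap is not given. Overlap thus only describes the arrays of the gene named. By limma 0% of the 17687 genes passed an adjusted p of 0.05 in this comparison (309 had an unadjusted p under 0.05). The difference for INSIG1 was 1.29 ± 0.40 (2.44-fold), and single array pairs differed by 0.53 to 2.04. The ethanol replicates set its size: it was 0.60 without ethanol replicate 1 and 1.97 without ethanol replicate 2.

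With Maraviroc at IC50, SREBF1 was lower and INSIG1 higher on both arrays. SREBF1 read 12.87 and 13.29 with Maraviroc IC50, against 14.93 and 14.59 with ethanol, a difference of -1.68 ± 0.28 (3.20-fold lower). INSIG1 read 12.76 and 13.46 with Maraviroc IC50, against 9.00 and 10.38 with ethanol, a difference of 3.42 ± 0.40 (10.7-fold higher). Neither gene's arrays overlapped, a measure with no share over all genes given. By limma's threshold, a separate measure, 27% of all genes were called. Over single array pairs SREBF1 was lower by at least 1.30 and INSIG1 higher by at least 2.38. The wider spread of the Maraviroc IC50 arrays moves with these values, and its part in them was not tested.

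With DZH_2 at IC20, the same directions were seen against DMSO. SREBF1 read 13.45 and 13.82 with DZH_2 IC20, against 14.84 and 14.99 with DMSO, a difference of -1.28 ± 0.28 (2.42-fold lower). INSIG1 read 12.19 and 12.02 with DZH_2 IC20, against 8.92 and 9.52 with DMSO, a difference of 2.88 ± 0.40 (7.37-fold higher). The groups did not overlap for either gene, a measure with no share over all genes given. By limma's threshold, a separate measure, 0.871% of all genes were called. Array pairs differed by at least 1.02 for SREBF1 and at least 2.50 for INSIG1.

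With DZH_2 at IC50, SREBF1 read 13.37 and 13.74, against 14.84 and 14.99 with DMSO, a difference of -1.36 ± 0.28 (2.56-fold lower). INSIG1 read 12.41 and 12.58 with DZH_2 IC50, against 8.92 and 9.52 with DMSO, a difference of 3.27 ± 0.40 (9.64-fold higher). Again neither gene's groups overlapped, with no share over all genes given. By limma's threshold, a separate measure, 1.57% of all genes were called. Leaving out any 1 of the 4 arrays kept SREBF1 between -1.54 and -1.17 and INSIG1 between 2.97 and 3.57.

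**Figure D3:**
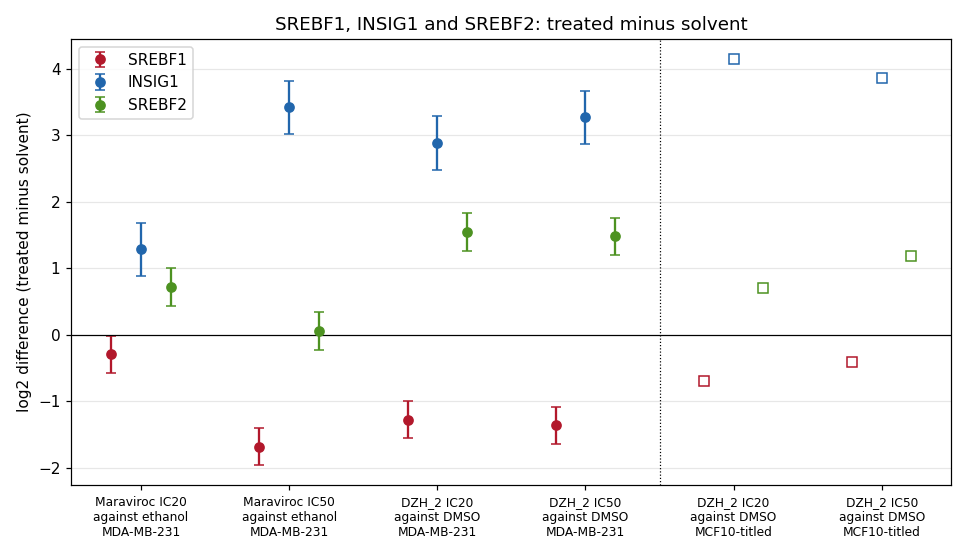
Log2 difference, treated minus solvent (y axis), of SREBF1 (red), INSIG1 (blue) and SREBF2 (green) in each comparison (x axis). Filled points with bars are limma estimates ± SE (n = 2 each), and open squares are single MCF10-titled arrays with no error. INSIG1 differences run from 1.29 to 4.14 and SREBF1 differences from -1.68 to -0.29.

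The doses of each compound were then compared. Between Maraviroc IC50 and Maraviroc IC20 the difference was -1.38 ± 0.28 for SREBF1 and 2.13 ± 0.40 for INSIG1, and neither gene's arrays overlapped (limma called 26.7% of all genes). Between DZH_2 IC50 and DZH_2 IC20 the difference was -0.08 ± 0.28 for SREBF1, with overlapping arrays, and 0.39 ± 0.40 for INSIG1, whose arrays did not overlap. Limma called 0% of genes between the DZH_2 doses (721 had an unadjusted p under 0.05). The SREBF1 value between DZH_2 doses turned to 0.11 without DZH_2 IC50 replicate 1 and also without DZH_2 IC20 replicate 2.

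The compounds were compared at each inhibitory concentration by subtracting the Maraviroc difference from the DZH_2 difference, each taken from its own solvent. At IC20 this gave -0.98 ± 0.39 for SREBF1 and 1.59 ± 0.57 for INSIG1, in a comparison where 0% of genes passed (1273 had an unadjusted p under 0.05). The INSIG1 value was 2.28 without ethanol replicate 1 and 0.91 without ethanol replicate 2. At IC50 it was 0.32 ± 0.39 for SREBF1 and -0.15 ± 0.57 for INSIG1, both smaller than their SE, and limma called 6.17% of all genes. The INSIG1 value at IC50 turned to 0.54 without ethanol replicate 1, 0.20 without Maraviroc IC50 replicate 2 and 0.15 without DMSO replicate 2. For the solvents, ethanol minus DMSO was -0.15 ± 0.28 for SREBF1 and 0.47 ± 0.40 for INSIG1, with overlapping arrays for both genes, and limma called 0% of genes (1352 had an unadjusted p under 0.05). These solvent values turned to 0.013 for SREBF1 and -0.22 for INSIG1 without ethanol replicate 2, the control array with the highest INSIG1 signal.

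SREBF2, the gene of SREBP-2, rose with DZH_2. It read 11.66 and 12.17 with DZH_2 IC20 and 11.73 and 11.97 with DZH_2 IC50, against 10.27 and 10.47 with DMSO. The differences were 1.54 ± 0.28 (limma, adjusted p = 0.0331) and 1.48 ± 0.28 (limma, adjusted p = 0.0284), with no overlap. The IC20 call was lost without DZH_2 IC20 replicate 2, DMSO replicate 1 or DMSO replicate 2, and the IC50 call without any 1 of its 4 arrays (adjusted p up to 0.312 and 0.286). With Maraviroc, SREBF2 read 11.78 and 11.72 at IC20 and 10.87 and 11.31 at IC50, against 10.80 and 11.26 with ethanol, and neither difference (0.72 ± 0.28 and 0.06 ± 0.28) passed. In DZH_2-treated MDA-MB-231, SREBF1 and SREBF2 signals thus differed from DMSO in opposite directions.

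SCAP, INSIG2, the SREBP protease gene MBTPS1 and the LXR gene NR1H3 did not pass in any of the 4 comparisons with solvent. INSIG2, the close relative of INSIG1, ranged from 7.32 to 9.52 over the 13 MDA-MB-231 arrays, and its differences from solvent were -0.03 ± 0.54 and 0.04 ± 0.54 with Maraviroc IC20 and IC50, and 0.42 ± 0.54 and 0.59 ± 0.54 with DZH_2 IC20 and IC50. SCAP ranged from 11.20 to 12.86, MBTPS1 from 10.74 to 12.36 and NR1H3 from 6.54 to 7.63. The NR1H3 range lay below the negative controls' 95th percentile of 8.40.

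Genes around SREBF1 and INSIG1 were followed in 5 lists: the machinery that processes SREBPs (14 measured), sterol synthesis targets (19), lipogenic targets (14), LXR receptors (2) and LXR targets (7). The lists were chosen with earlier results of these data known, so counts of their members carry that choice and test nothing. With Maraviroc IC20 none of the 56 genes passed, and 18 of 19 sterol targets were higher in value, with a median of 0.72, where the median of all genes was -0.01. Between the solvents, ethanol against DMSO, none of the 56 passed either. There 16 of 19 sterol targets were higher in value with ethanol, with a median of 0.45. The part of this in the comparison of the compounds was not tested. With DZH_2 IC20, 8 of 19 sterol targets rose and none fell, and their median difference was 1.65. Of all genes 0.435% rose and 0.435% fell. HMGCS1, an early enzyme of the mevalonate route, averaged 12.5 with DZH_2 IC20 against 8.03 with DMSO, a difference of 4.47 ± 0.35 (limma, adjusted p = 2.4e-04). That DMSO average lay below the negative controls' upper percentile of 8.40, so this size is uncertain. The same limit holds here and below for any size that rests on an average under 8.40. DHCR7 and HSD17B7, enzymes of late cholesterol synthesis, rose by 3.40 and 2.17. Of 14 lipogenic targets 5 rose, among them ACSS2, which makes acetyl-CoA, by 2.80, FASN, the fatty acid synthase, by 2.59 and the citrate carrier SLC25A1 by 2.07. Single arrays ended these calls other than that of HMGCS1: DHCR7 without DMSO replicate 2, FASN without any 1 of the 4 arrays, and HSD17B7, ACSS2 and SLC25A1 without DZH_2 IC20 replicate 2 or either DMSO replicate.

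With DZH_2 IC50, 11 of 19 sterol targets rose and none fell (median 1.78), among 0.582% of all genes that rose and 0.984% that fell. HMGCS1 averaged 12.8 with DZH_2 IC50 against 8.03 with DMSO, a difference of 4.76 ± 0.35 (limma, adjusted p = 7.6e-05). This size is uncertain too, since the DMSO average was under 8.40. DHCR7 rose by 3.32 and MVD, a mevalonate route decarboxylase, by 2.02. Of 14 lipogenic targets 4 rose, including FASN by 2.79, ACSS2 by 2.78 and SLC25A1 by 1.74. HMGCS1 again passed without any 1 array, whereas DHCR7 did not without either DMSO replicate, ACSS2 without DZH_2 IC50 replicate 2 or either DMSO replicate, and MVD, FASN and SLC25A1 without any 1 of the 4. The SLC25A1 call was also lost with all 5 controls as 1 group (adjusted p = 0.0713). The machinery list had 1 member pass at either dose, SREBF2.

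Of the 7 LXR targets measured, 2 fell at either DZH_2 dose and none rose, when 0.435% of all genes fell at IC20 and 0.984% at IC50. ABCG1, a cholesterol exporter, averaged 7.10 with DZH_2 IC20 and 6.58 with DZH_2 IC50 against 10.9 with DMSO. Its differences were -3.77 ± 0.32 (limma, adjusted p = 3.4e-04) and -4.28 ± 0.32 (limma, adjusted p = 7.6e-05). Both DZH_2 averages of ABCG1 lay below the negative controls' 95th percentile of 8.40, so these sizes are uncertain. ABCA1, another cholesterol exporter, also fell (limma, adjusted p = 0.0179 and 0.00855), to averages of 5.64 with DZH_2 IC20 and 5.39 with DZH_2 IC50, against 7.82 with DMSO. Both treated averages were near the negative controls, under their 75th percentile of 6.10. The DMSO average of ABCA1 lay below the negative controls' 95th percentile of 8.40, so no size is given for it. The ABCA1 call was lost with all 5 controls as 1 group (adjusted p = 0.185 and 0.0818), and also at IC20 without DZH_2 IC20 replicate 2 or either DMSO replicate and at IC50 without any 1 of the 4 arrays. In all, 16 of 56 pathway genes passed at IC20 and 18 at IC50, against 0.871% and 1.57% of all genes. Because the lists were chosen with earlier results known, the excess over all genes describes that choice too. Without any 1 of DZH_2 replicate 1, DZH_2 replicate 2, DMSO replicate 1 or DMSO replicate 2, both pathway counts fell, as did the counts over all genes. HMGCS1 and ABCG1 passed in every one of these fits.

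With Maraviroc IC50 genes of these lists went both ways, as did all genes. Of 19 sterol targets 7 rose and 2 fell (median 0.10), when 12% of all genes rose and 15% fell and the median of all genes was 0.11. The 2 falls and the median thus did not exceed those of all genes. SC5D, a late enzyme of cholesterol synthesis, rose by 2.59 ± 0.37 (limma, adjusted p = 2.6e-04) and HMGCS1 by 2.27 ± 0.35 (limma, adjusted p = 4.5e-04), while TMEM97, a sterol-binding membrane protein, fell by 3.48 ± 0.42 (limma, adjusted p = 8.1e-05). Of 14 machinery genes 5 rose and 1 fell, among them genes of the system that degrades HMG-CoA reductase. ERLIN1, a scaffold of that system, averaged 8.24 with Maraviroc IC50 against 12.36 with ethanol, a difference of -4.12 ± 0.28 (limma, adjusted p = 1.9e-06). The ubiquitin ligase gene RNF145 rose by 2.79 ± 0.35 and the ubiquitin-conjugating enzyme gene UBE2G2 by 1.69 ± 0.28. These 6 calls stood with each of the 4 arrays left out. Averages of SC5D with ethanol (8.02), TMEM97 with Maraviroc IC50 (7.33) and ERLIN1 with Maraviroc IC50 (8.24) lay below 8.40. The sizes of the differences of SC5D, TMEM97 and ERLIN1 are therefore uncertain.

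With Maraviroc IC50, 2 of 14 lipogenic targets rose and 2 fell, shares near the 12% and 15% of all genes. PNPLA3, a lipid droplet enzyme, rose to 6.46 with Maraviroc IC50, against 5.35 with ethanol, an average near the negative controls, so the level was at least 1.28-fold higher, while ACACA, the acetyl-CoA carboxylase, fell by 0.95 and ME1, a malic enzyme, fell by 1.03. Of 7 LXR targets 2 fell, where ABCG1 fell by 2.69 and SMPDL3A, a secreted phosphodiesterase, fell by 1.40, and the receptor partner RXRB rose by 1.04. Of these calls ABCG1 alone stood with each array left out: ACACA was lost without Maraviroc IC50 replicate 2 or ethanol replicate 1, RXRB without ethanol replicate 1, SMPDL3A without Maraviroc IC50 replicate 1 or ethanol replicate 2, and PNPLA3 and ME1 in 3 of the 4 fits. All 5 were also lost in the fit of the 4 compared arrays alone and with array weights. ABCG1 read 6.90 and 7.57 with Maraviroc IC50 and SMPDL3A averaged 8.36 with ethanol, all below 8.40. The sizes of the ABCG1 and SMPDL3A differences are therefore uncertain. In all 22 of 56 genes passed, when 27% of all genes did, and fewer of the 56 passed without ethanol replicate 1. The IC50 differences of the compounds were also set against each other for these lists. For DZH_2 minus Maraviroc at IC50, 8 of 19 sterol targets were higher and none lower (median 1.60), 4 of 14 lipogenic targets were higher, and 1 of 7 LXR targets was lower, when 4.02% of all genes were higher and 2.15% lower. That target was ABCA1, whose averages were near the negative controls with DZH_2 IC50 (5.39), Maraviroc IC50 (5.41) and ethanol (6.02), so no size is given for it. TMEM97 and ERLIN1 had differences of 3.61 ± 0.60 and 3.60 ± 0.39 and HMGCS1 of 2.49 ± 0.49. These 3 sizes are uncertain too, since each rests on an average under 8.40. The count over all lists was 14 of 56, against 9 and 4 without DZH_2 IC50 replicate 1 or 2, 5 without DMSO replicate 1 or 2 and 5 without ethanol replicate 2.

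**Figure D4:**
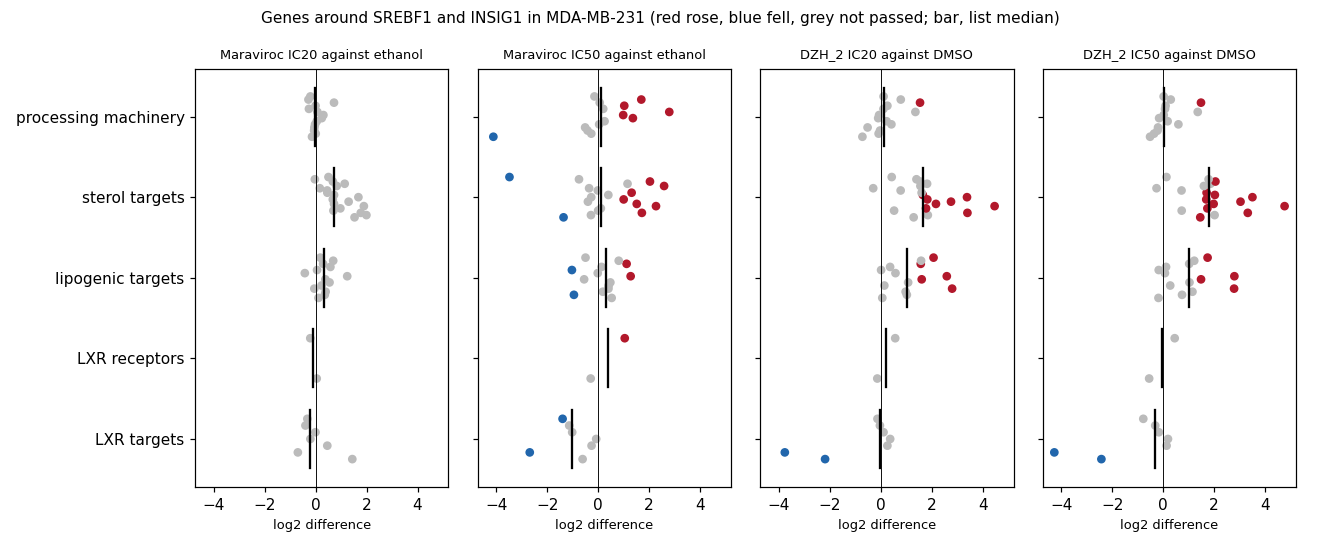
Log2 difference, treated minus solvent (x axis), of each measured gene of 5 lists (rows) in the 4 MDA-MB-231 comparisons (panels). Points are genes, red where they rose and blue where they fell at a limma adjusted p under 0.05, and grey otherwise; bars are list medians. Sterol targets lie mostly to the right with DZH_2 IC20 and IC50 (8 and 11 of 19 rose, against 0.435% and 0.582% of all genes). They lie on both sides with Maraviroc IC50 (7 rose and 2 fell, against 12% and 15% of all genes). The lists were chosen with earlier results of these data known.

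The genes whose pattern was most like each member were taken by Pearson correlation over the 13 MDA-MB-231 arrays, as a description of arrays that share groups and processing. Most like INSIG1 were STARD4 (0.973), a sterol transfer protein, SC5D (0.965), CORO1B (0.958), an actin-binding coronin, FTL (0.957), the ferritin light chain, and PTPRS (0.953), a receptor phosphatase. STARD4 differed from ethanol by 0.67 and 2.03 with Maraviroc IC20 and IC50, and from DMSO by 1.55 and 2.05 with DZH_2 IC20 and IC50. SC5D differed by 0.83 and 2.59 with Maraviroc and by 1.56 and 1.59 with DZH_2. STARD4 and SC5D stand in the sterol target list.

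Most like SREBF1 were CDKN2AIPNL (0.971), CPSF3 (0.962), a subunit of the mRNA cleavage complex, MBNL3 (0.958), an RNA-binding splicing factor, PHLDB2 (0.953), a cortical scaffold protein, and LSM3 (0.952), a spliceosome subunit. None stands in the 5 lists. PHLDB2 differed from ethanol by -0.15 and -2.59 with Maraviroc IC20 and IC50, and from DMSO by -1.99 and -1.69 with DZH_2 IC20 and IC50. CDKN2AIPNL differed by -0.07 and -1.44 with Maraviroc and by -0.77 and -0.97 with DZH_2.

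In the MCF10-titled arrays, each group is 1 array and no difference has a replicate check. SREBF1 read 11.68 with DZH_2 IC20 and 11.95 with DZH_2 IC50, against 12.36 with DMSO, so the differences were -0.69 and -0.41. INSIG1 read 12.90 with DZH_2 IC20 and 12.61 with DZH_2 IC50, against 8.76 with DMSO, differences of 4.14 (17.7-fold) and 3.85 (14.5-fold). INSIG1 was thus higher by at least 1 at either dose, as were 11.6% of all genes at IC20 and 9.38% at IC50, while SREBF1 was not lower by 1 at either dose, as 12.8% of all genes were at IC20 and 8.83% at IC50. Untreated minus DMSO was 0.08 for SREBF1 and -0.20 for INSIG1. SREBF2 read 11.92 and 12.41 with DZH_2 IC20 and IC50, against 11.22 with DMSO, differences of 0.70 and 1.19.

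SREBF1 was lower in the MCF10-titled controls than in those of MDA-MB-231, by a difference of -2.55 in DMSO and -2.62 in untreated cells, whereas INSIG1 differed by -0.47 and -0.14. Among the pathway lists, 17 of 19 sterol targets were higher by at least 1 at both DZH_2 doses in the MCF10-titled arrays, with medians of 3.78 and 3.50 where all genes had 0.02 and 0.01. These medians take values near the negative controls, such as that of SC5D with DMSO, as measured. At IC50, 1 sterol target was lower by at least 1, as were 8.83% of all genes. Lipogenic targets were higher by that much in 8 of 14 at IC20 and 10 of 14 at IC50, against 11.6% and 9.38% of all genes. Of the genes most like INSIG1 in MDA-MB-231, SC5D read 10.86 and 10.46 with DZH_2 IC20 and IC50, against 5.50 with DMSO, a value near the negative controls, so it was at least 26.9-fold and 20.5-fold higher. STARD4 differed by 2.46 and 2.33, FTL by 1.84 and 2.21, CORO1B by 0.68 and 0.78, and PTPRS by 0.90 and -0.04. Of those most like SREBF1, LSM3 (-1.12 and -1.49) and CDKN2AIPNL (-0.63 and -1.20) were lower at both doses, and CPSF3 (1.14 and -0.53) differed in sign between doses. MBNL3 read 5.91 with DZH_2 IC20, near the negative controls, and 7.61 with DZH_2 IC50, against 7.61 with DMSO. PHLDB2 was near the negative controls with DZH_2 IC50 (5.84) and with DMSO (5.90) and read 6.64 with DZH_2 IC20.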

How the data were processed

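Total RNA was extracted with Trizol and labelled with the GeneChip WT PLUS kit, per the labels' protocols. The values the authors deposited are log2 signals of 24351 probe sets on 17 arrays, and the sources used here do not state how the authors summarised, corrected and normalized them. Values were used as deposited. Probe sets were named through the platform annotation: 17709 had 1 gene symbol and 0 had several, and the probe set with the highest mean was kept for 20 genes with several, which left 17687 genes. A gene is near the negative controls below the 75th percentile (6.10) of 612 negative control probe sets. Their 95th percentile was 8.40, so a signal between these values may still be background. No source used here states the genome build of the array.

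Groups came from the titles. The 12 arrays of 6 replicated MDA-MB-231 groups entered 1 fit with limma 3.58.1 (R 4.3.3, the data.table package, version 1.17.8; lmFit, contrasts.fit, eBayes; 6 residual degrees of freedom), with 2-sided tests, Benjamini-Hochberg adjustment over 17687 genes and a threshold of 0.05. The step was tested on simulated data. Precision is limited by the number of arrays, since arrays have no read depth. Nothing in the labels says that replicates came from separate cultures, so p-values and SEs cover only array-to-array spread, possibly technical. Same-numbered replicates deviated from their group means with correlations of 0.251 (Maraviroc IC20 with ethanol), 0.122 (Maraviroc IC50 with ethanol), 0.0694 (DZH_2 IC20 with DMSO) and -0.0342 (DZH_2 IC50 with DMSO), so the numbers were not taken as pairs.

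SREBF1, INSIG1 and the gene lists were chosen with earlier results of these data known. Beyond the 2 genes and SREBF2, SCAP, INSIG2, MBTPS1 and NR1H3, those named are up to 3 genes of each list with the smallest p past the threshold in each comparison with solvent, and the 5 genes of highest correlation with each of SREBF1 and INSIG1 among 10680 genes above the negative controls. Alternatives were quantile normalization, median centring, a filter on dim probe sets, array weights, the arrays compared alone, all 5 controls as 1 group, the replicate number as a block, the mean of probe sets, and each array left out. A fit without the 2 Maraviroc IC50 arrays was chosen after seeing the data. Promoter and microRNA sequences are from RefSeq tables on GRCh38.p14, where both genes were matched.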

Additional observations from a re-analysis of the deposited data

Results flagged for a closer look

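Of 56 pathway genes, 10 had DZH_2 differences from DMSO of opposite sign in the MCF10-titled arrays and in the MDA-MB-231 means at both doses. The share of all genes with such opposite signs is not given, so this count is not read as a result about the pathway. For 2 of them, ABCG1 and MBTPS1, all 4 DZH_2 arrays of MDA-MB-231 also lay beyond both DMSO arrays, and the difference between the lines was not tested. ABCG1 was higher than with DMSO in the MCF10-titled arrays by 0.53 with DZH_2 IC20 and 0.82 with DZH_2 IC50. It read 5.87 and 6.16 there against 5.34 with DMSO, around the negative controls' 75th percentile of 6.10. The untreated MCF10-titled array read 6.20 for ABCG1, above both DZH_2 arrays there. In MDA-MB-231 the ABCG1 differences were -3.77 and -4.28. MBTPS1 differed by -0.24 and -0.01 in the MCF10-titled arrays, whereas in MDA-MB-231 it differed by 0.23 and 0.17, neither of which passed limma's threshold. The untreated MDA-MB-231 array read 11.41 for MBTPS1, level with the DZH_2 arrays there (11.30 to 11.41).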

How the results depend on the processing

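The differences of SREBF1 and INSIG1 from solvent kept their direction under every alternative run, and those between doses and compounds did so too, apart from the SREBF1 and INSIG1 values below. Without leaving out arrays, SREBF1 ranged from -0.42 to -0.22 with Maraviroc IC20, -1.80 to -1.51 with Maraviroc IC50, -1.34 to -1.25 with DZH_2 IC20 and -1.36 to -1.31 with DZH_2 IC50, and INSIG1 from 1.29 to 1.67, 3.42 to 3.80, 2.80 to 2.97 and 3.19 to 3.51. SREBF1 between the DZH_2 doses was 0.028 after quantile normalization and -0.27 to 0.11 with 1 array left out. With 1 array left out, INSIG1 was 0.60 to 1.97 for Maraviroc IC20 and 2.73 to 4.10 for Maraviroc IC50, ethanol minus DMSO was -0.32 to 0.013 for SREBF1 and -0.22 to 1.15 for INSIG1, and DZH_2 minus Maraviroc for INSIG1 was 0.91 to 2.28 at IC20 and -0.83 to 0.54 at IC50 (0.20 without Maraviroc IC50 replicate 2, 0.15 without DMSO replicate 2).

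Counts of genes called were less stable, and the cause was not tested. Genes called over all genes (pathway genes in brackets) were 0 (0) for Maraviroc IC20, 4778 (22) for Maraviroc IC50, 154 (16) for DZH_2 IC20, 277 (18) for DZH_2 IC50 and 1091 (14) for DZH_2 minus Maraviroc at IC50. Fits of the compared arrays alone gave 1, 2399 (9), 244, 817 and 707 in that order. With all 5 controls as 1 group Maraviroc IC20 gave 1 (1, HMGCS1), DZH_2 IC20 419, DZH_2 IC50 635 and the compound comparison 3690. Array weights gave 13 pathway genes for Maraviroc IC50, 488 (25) for DZH_2 IC20 and 942 for DZH_2 IC50. The fit without the Maraviroc IC50 arrays, chosen after seeing the data, gave 495 (26) for DZH_2 IC20 and 837 for DZH_2 IC50. With 1 array left out the counts were 2995 to 5080 (10 to 24) for Maraviroc IC50, 2 to 131 (2 to 10) for DZH_2 IC20, 2 to 22 (2 to 4) for DZH_2 IC50 and 448 to 1981 (4 to 19) for the compound comparison. Median centring moved the median of all genes for Maraviroc IC50 to 0.28 and its split to 3018 risen and 2308 fallen, against 2122 and 2656 as deposited, and quantile normalization gave 2506 and 2337. Quantile normalization gave 120 risen and 116 fallen for DZH_2 IC50, against 103 and 174, and median centring 616 and 524 for the compound comparison, against 711 and 380. With the replicate number as a block, 0, 4821, 204 and 347 genes were called in the 4 comparisons with solvent, and the SREBF1 and INSIG1 differences were identical.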
